A study of Drosophila melanogaster with 3 samples.

Results

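The genes described are 10 core regulators of the Drosophila cell cycle: the cyclins CycA, CycB, CycB3, CycD and CycE, the kinases Cdk1 and Cdk2, the phosphatase gene stg, the inhibitor gene dap and fzy, which encodes an activator of cyclin destruction. They were chosen by name, and all 10 were found among the 13945 protein-coding genes of the Ensembl annotation. The protein mapped was CG9727 carrying enhanced GFP at its C-terminus, in a single stably transgenic fly line. Chromatin of whole embryos aged 0 to 24 h, males and females pooled, was precipitated with an antibody against GFP and sequenced (ChIP-seq). The 3 biological replicates form 1 group with no other treatment or genotype. Embryos of all stages and all tissues are mixed in each sample, so a peak cannot be assigned to a stage or a cell type. The authors used a control when they called peaks, but chromatin without the fusion was not analysed here. Whether the line keeps an untagged copy of CG9727 is not stated in the labels.

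The measurements are peaks, stretches where precipitated DNA was denser than in a control, each with a summit and a signal value that the authors computed. A thresholded list of 7896 peaks was made by the authors with the irreproducible discovery rate (IDR), a measure of rank agreement between replicates. Longer relaxed lists of 30000 peaks each were made from the pooled reads and from each replicate. The pooled relaxed list is labelled as peaks and background. A summit found in a relaxed list alone is therefore not shown to be a bound site. The 7896 IDR peaks were exactly the 7896 strongest peaks of the pooled list, so membership was equivalent to a pooled signal of at least 158. Of all IDR peaks, 62.5% had a summit within 100 bp among the 7896 strongest peaks of every replicate. Read depth is unknown from these lists, and signal values of different lists are not on a common scale, so replicates were compared by rank.

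A cyclin activates its kinase partner, and the order of cyclins orders the phases of the cycle. CycE with Cdk2 starts DNA replication, CycD with Cdk4 promotes growth in G1, and CycA, CycB and CycB3 with Cdk1 drive mitosis. The String phosphatase, the fly Cdc25, removes inhibitory phosphates from Cdk1. Fizzy, the fly Cdc20, directs the anaphase-promoting complex (APC/C) to mitotic cyclins, and Dacapo inhibits CycE-Cdk2 when embryonic cells stop dividing. In the fly embryo the earliest divisions run on maternal products, and later divisions depend on zygotic string transcription.

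An IDR summit lay within 500 bp of a transcription start site (TSS) of 6 of the 10 genes, namely CycA, CycB3, CycE, Cdk1, fzy and dap. The same was true of 27.0% of all protein-coding genes. CycB, CycD, Cdk2 and stg had none. Within 200 bp the genes were CycA, CycB3, fzy and dap (4 of 10, against 19.2%), and within 1000 bp they were the same 6 as within 500 bp (30.6% of coding genes). Among the 3948 strongest IDR peaks, only CycE and Cdk1 had a promoter summit (2 of 10, against 16.6%). From 2 kb upstream of the first TSS to the gene end, the same 6 genes held 11 IDR summits, and 37.2% of coding genes had at least 1. CycE, dap and Cdk1 held more than 1 summit each (3 of 10 genes, against 15.0% of coding genes). The windows of the 10 genes measured 3524 to 22570 bp with a median of 5155.5 bp, against a median of 4166 bp over all coding genes. They held 0.155 summits per kb, and the merged windows of all coding genes held 0.0677 per kb. CycE and dap held 3 of the 11 summits each, so the density of the 10 genes rests on few of them.

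**Figure D1:**
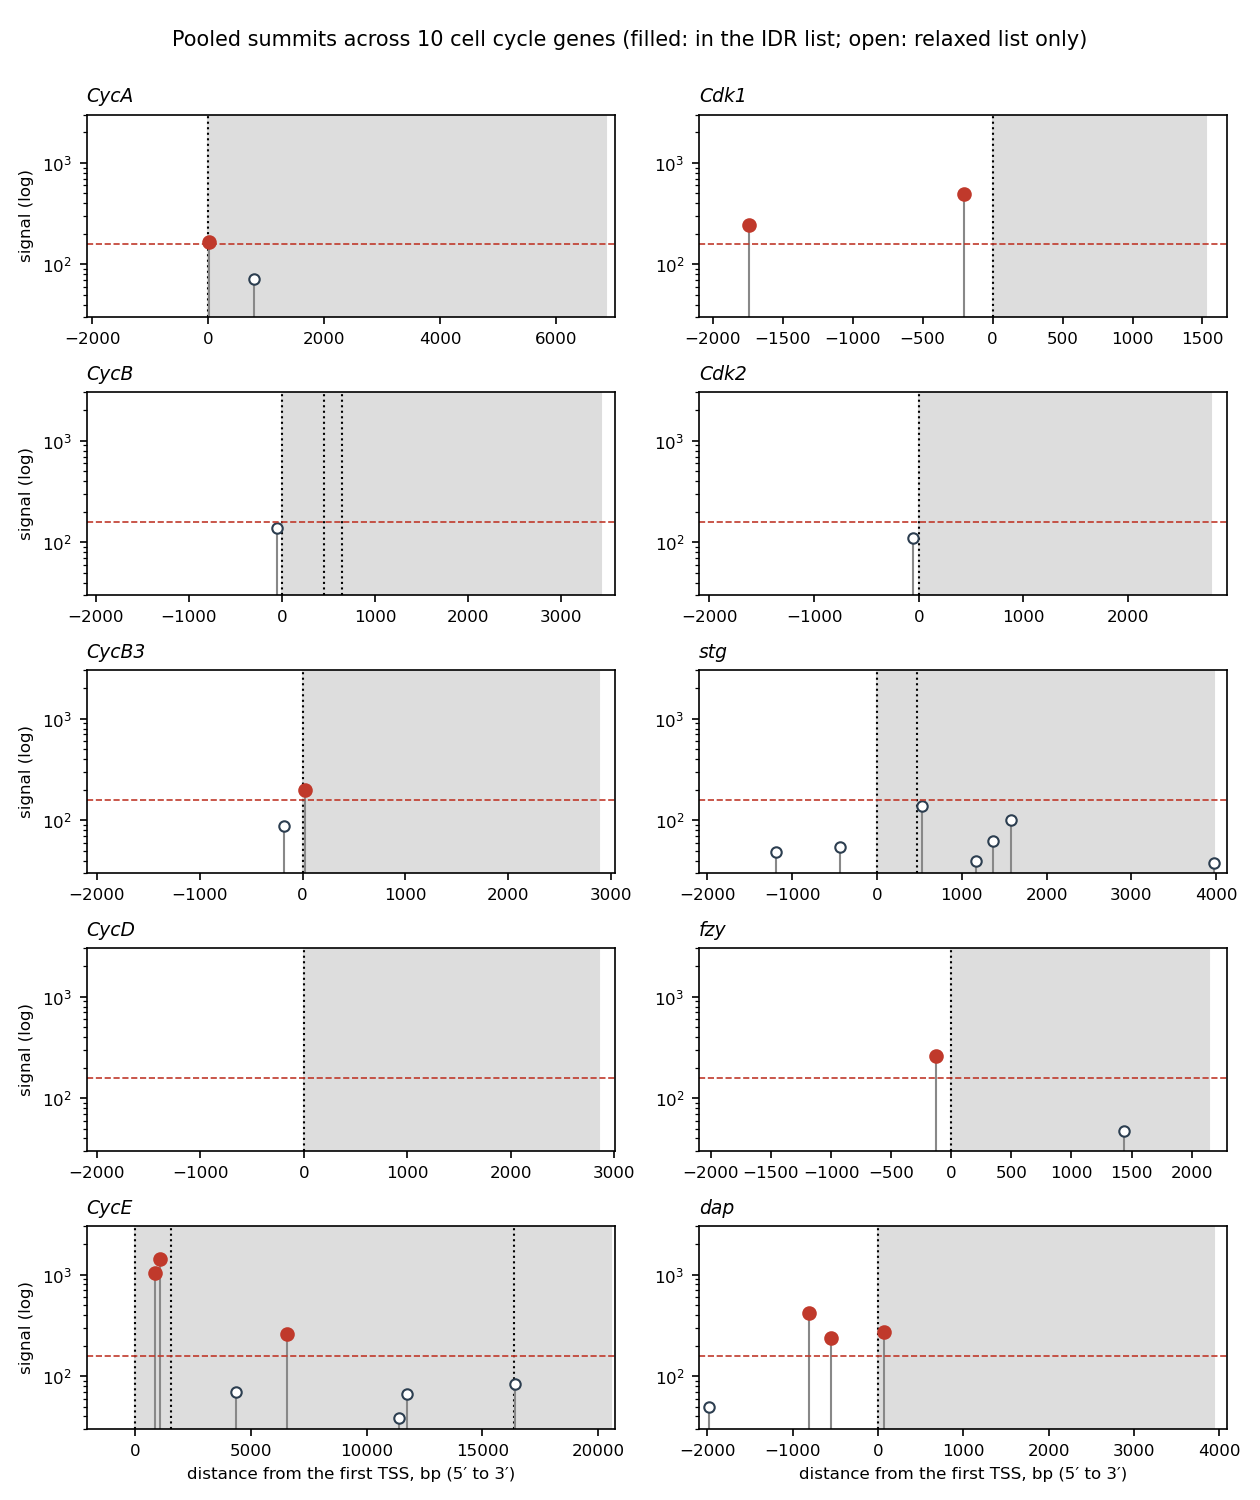
Pooled summits across each gene, by signal (log axis) and distance from the first TSS in bp, read 5′ to 3′. Grey marks the gene, dotted lines its TSSs, filled points the IDR summits, open points summits of the relaxed pooled list alone, and the dashed line the lowest IDR signal of 158. CycE, with signals of 1426 and 1044, carries the tallest summits, and CycD has no summit in its window.

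The sequences at the promoter summits of CycE, Cdk1, fzy, CycB3 and CycA are shown. These sequences represent every IDR promoter summit of the chosen genes except that of dap, which lies on an arm from which no sequence is printed. Each covers 100 bp to either side of the summit on dm6, read from the RefSeq copy of that assembly on the strand of the gene, and capitals mark matches on either strand to the searched motifs, which are spelled out with the motif counts. The regions are chr2L:15746992-15747192 (CycE, minus strand), chr2L:10386364-10386564 (Cdk1, minus strand), chr2L:16310728-16310928 (fzy, plus strand), chr3R:24870692-24870892 (CycB3, minus strand) and chr3L:11833467-11833667 (CycA, minus strand).
CycE: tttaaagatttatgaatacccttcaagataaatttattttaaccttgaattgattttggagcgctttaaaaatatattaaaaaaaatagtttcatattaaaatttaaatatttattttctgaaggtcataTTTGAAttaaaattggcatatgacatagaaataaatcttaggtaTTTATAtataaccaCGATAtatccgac
Cdk1: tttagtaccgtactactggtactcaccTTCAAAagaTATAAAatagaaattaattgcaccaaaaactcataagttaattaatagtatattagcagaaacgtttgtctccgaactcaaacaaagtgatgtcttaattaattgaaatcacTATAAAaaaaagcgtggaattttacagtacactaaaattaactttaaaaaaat
fzy: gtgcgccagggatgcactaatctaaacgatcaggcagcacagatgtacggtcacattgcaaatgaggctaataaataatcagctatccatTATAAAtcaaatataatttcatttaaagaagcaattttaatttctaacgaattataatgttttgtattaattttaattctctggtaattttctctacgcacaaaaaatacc
CycB3: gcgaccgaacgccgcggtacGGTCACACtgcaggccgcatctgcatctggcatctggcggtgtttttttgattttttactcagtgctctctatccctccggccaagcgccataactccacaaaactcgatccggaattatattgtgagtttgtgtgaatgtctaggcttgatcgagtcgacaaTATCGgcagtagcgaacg
CycA: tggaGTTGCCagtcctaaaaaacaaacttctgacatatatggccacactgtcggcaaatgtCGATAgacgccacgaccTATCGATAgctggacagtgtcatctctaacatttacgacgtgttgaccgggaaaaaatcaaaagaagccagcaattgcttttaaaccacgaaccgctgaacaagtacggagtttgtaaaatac

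CycE (FBgn0010382, chr2L:15727581-15748150, minus strand) had the summit of highest pooled signal in the windows of the 10 genes, from 2 kb upstream to the gene end. It is 20570 bp long and has 3 TSSs. A single interval, chr2L:15746845-15747408, carried 2 summits with pooled signals of 1426 and 1044, ranks 219 and 464 of 7896. Both lay in an intron, between the first and the second TSS, 1058 and 857 bp downstream of the first and 482 and 683 bp upstream of the second. The stronger summit ranked 184 in replicate 1, 216 in replicate 2 and 266 in replicate 3, so all replicates placed it among their strongest sites. The weaker summit ranked 4294, 1906 and 542 in replicates 1, 2 and 3, a much wider spread. Its match in replicate 1 lay 67 bp away, so that match may be a different site. The remaining IDR summit, at rank 4397 with a signal of 259, lay in an intron 5026 bp downstream of the second TSS. The nearest TSS of any gene was that of lncRNA:CR44974, 4673 bp away. It ranked 3786, 5494 and 4884 in replicates 1, 2 and 3. The third TSS had only a relaxed pooled summit 38 bp downstream of it, at rank 14965 with a signal of 83.3. A higher pooled promoter signal than that of CycE was found at few coding genes, since 98.7% of them were lower or had no promoter summit.

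The CycE summit was close to the 500 bp limit, and this affects counts made on single replicates. In replicates 1 and 2 its summit fell 512 and 511 bp from the second TSS, just outside, and in replicate 3 it fell 480 bp away, inside. The rank of the peak was high in all of them.

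Among the mitotic cyclins, CycA and CycB3 had weak IDR summits right at their TSS and CycB had none. CycB3 (FBgn0015625, chr3R:24867934-24870816, minus strand) had a summit 24 bp downstream of its TSS, in the 5′ UTR, with a signal of 198 at rank 6096. It ranked 5380 in replicate 1, 10950 in replicate 2 and 6637 in replicate 3. The match in replicate 2 was outside the 7896 strongest peaks of that replicate. It lay 81 bp away from the pooled summit, so it may be a different site. CycA (FBgn0000404, chr3L:11826719-11833578, minus strand) had a summit 11 bp downstream of its TSS, also in the 5′ UTR, with a signal of 165 at rank 7585. This value was 104% of the lowest IDR signal, the closest of the 6 genes to the limit. Its ranks were 5513, 8983 and 9443 in replicates 1, 2 and 3, so it was among the 7896 strongest peaks in replicate 1 alone.

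CycB (FBgn0000405, chr2R:22803521-22806948, minus strand) fell just below the limit at its promoter. Its pooled summit 53 bp upstream of the first TSS had a signal of 138, rank 9166 of 30000, or 87.1% of the lowest IDR signal. Ranks of 8812, 10312 and 13852 in replicates 1, 2 and 3 put it outside the strongest 7896 in each. A far stronger peak lay beyond the other end of the gene. The IDR peak at chr2R:22802688-22803225, with a signal of 2240 at rank 56, had its summit 564 bp past the 3′ end of CycB and inside no annotated gene. It ranked 53, 47 and 76 in replicates 1, 2 and 3. No TSS of any gene was closer to it than that of CycB, 3346 bp away. This peak is outside the window and does not enter the counts. With windows carried 1 kb past the gene end, CycB and stg joined the 6 genes (8 of 10, against 40.6% of coding genes).

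CycD (FBgn0010315, chrX:15906822-15909676, minus strand) was the gene without any peak. No list, pooled or replicate, relaxed or thresholded, had a summit from 2 kb upstream of its TSS to its end. The nearest IDR summit was 19361 bp from its TSS, at rank 4662 and 206 bp from a TSS of MSBP, which encodes a membrane steroid binding protein.

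The kinase genes differed from each other. Cdk1 (FBgn0004106, chr2L:10384739-10386262, minus strand), the mitotic kinase, had a summit 202 bp upstream of its TSS with a signal of 496 at rank 1808. The replicates agreed closely, with ranks of 1768, 1957 and 1812 in replicates 1, 2 and 3. This summit lay in the 400 bp between the TSS of Cdk1 and that of mRpS7, a mitochondrial ribosomal protein gene transcribed the other way. It was 198 bp from the mRpS7 TSS, so it cannot be assigned to either gene. A further summit in the Cdk1 window, at rank 4739 and 1745 bp upstream, was 98 bp from the TSS of da, which encodes the bHLH protein Daughterless. It ranked 5873, 4481 and 4693 in replicates 1, 2 and 3.

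Cdk2 (FBgn0004107, chr3R:20735623-20738414, plus strand), the partner of CycE, had no IDR summit. A relaxed pooled summit 59 bp upstream of its TSS had a signal of 111 at rank 11391, or 70.2% of the lowest IDR signal. It ranked 12457 in replicate 1 and 11357 in replicate 3, and replicate 2 had no summit within 100 bp of it. The weak promoter summits of replicate 2 lay 171 and 499 bp downstream of the TSS, at ranks 20765 and 18117.

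stg (FBgn0003525, chr3R:29251826-29255800, minus strand) held 7 relaxed pooled summits, as many as the much longer CycE, yet no IDR summit. Their q-values on the −log10 scale ran from 0.174 to 2.61, so part of them may be background. The strongest lay 52 bp downstream of the second of its 2 TSSs, with a signal of 139 at rank 9098, or 87.6% of the lowest IDR signal. It ranked 7518 in replicate 1 and 7720 in replicate 3, inside the strongest 7896 of both, and had no counterpart within 100 bp in replicate 2. By this measure stg was supported by more replicates than CycA, although CycA is in the IDR list and stg is not. The next summits of stg, 1103 and 898 bp downstream of the second TSS, had signals of 101 and 62.8. The nearest IDR summit, at rank 5603, lay 202 bp past the 3′ end of the gene, in a peak at chr3R:29251372-29251875. Its ranks were 4836, 6009 and 6549 in replicates 1, 2 and 3. The end of that interval reaches into the gene, but the summit is outside it.

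fzy (FBgn0001086, chr2L:16310956-16313097, plus strand) had a summit 128 bp upstream of its TSS, with a signal of 257 at rank 4440. Ranks of 4974, 5154 and 5238 in replicates 1, 2 and 3 were close to each other. The TSS of cni, which encodes the cargo receptor Cornichon and is transcribed the other way, is 230 bp from that of fzy. The summit was 102 bp from the cni TSS, so this peak too is shared by a divergent pair.

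dap (FBgn0010316, chr2R:9712321-9716256, plus strand) had 3 IDR summits with no TSS of another gene within 500 bp. The strongest, with a signal of 421 at rank 2285, lay 813 bp upstream of the TSS. Another lay 553 bp upstream, with a signal of 237 at rank 4947. The promoter summit, 74 bp downstream of the TSS and in the 5′ UTR, had a signal of 273 at rank 4130. The balance between these sites varied by replicate. The summit 813 bp upstream ranked 1237, 4335 and 2651 in replicates 1, 2 and 3. The summit 553 bp upstream ranked 1993, 7590 and 11952, whereas the promoter summit ranked 10792, 4156 and 2373. Replicate 1 was therefore the highest of the replicates at both upstream summits and the lowest at the promoter. The match of the summit 553 bp upstream lay 98 bp away in replicate 3, near the 100 bp limit. That of the summit 813 bp upstream lay 82 bp away in replicate 2, so these matches may be different sites.

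**Figure D2:**
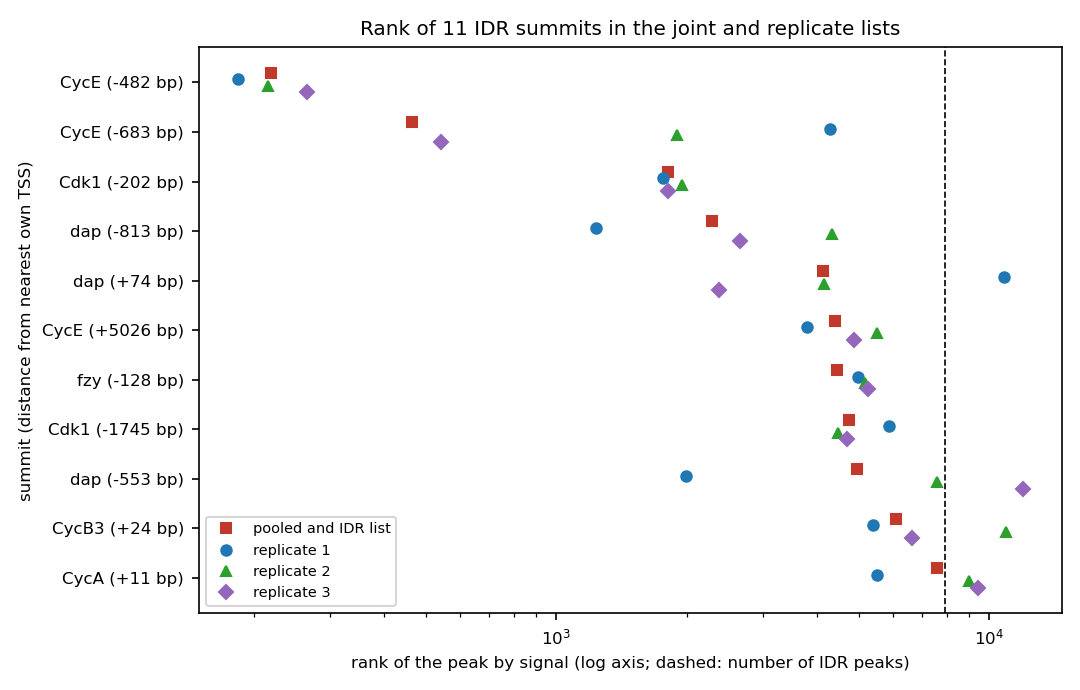
Rank by signal (log axis, strongest at the left) of the 11 IDR summits of these genes in the pooled list and in each replicate, with the distance from the nearest TSS of the same gene. The dashed line marks 7896 peaks. The points of fzy and of the Cdk1 summit 202 bp from its TSS lie close together, and 4 summits, of dap (2), CycB3 and CycA, have at least 1 replicate beyond the line.

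All 11 IDR summits had a summit within 100 bp in the relaxed list of every replicate, and the share of all IDR peaks is not given here. Among the 7896 strongest peaks of each replicate, 7 of the 11 were matched in all replicates, 3 in 2 replicates and 1 in a single replicate. Over all IDR peaks the shares were 62.5%, 24.6% and 11.4% in that order, so the support of these summits was close to that of the whole list. The IDR peaks are the strongest peaks of the pooled reads, which include every replicate, so part of this agreement is built in. Their median rank was 4397 against 3948.5 for the whole list, and their median signal was 259 against 282. Only 4 of the 11 were among the 3948 strongest IDR peaks, 2 of CycE, 1 of Cdk1 and 1 of dap. Counted by gene within each replicate, 5, 3 and 6 of the 10 genes had a promoter summit among the strongest 7896 of replicates 1, 2 and 3. Over these replicates the count averaged 4.67 ± 1.53 genes (SD, n = 3). The shares of all coding genes were 27.8%, 26.4% and 27.0% in the same replicates. Only Cdk1 and fzy had one in each replicate by this count (2 of 10 genes, against 21.3% of coding genes). With all replicates demanded for the same IDR summit, 3 genes remained, CycE, Cdk1 and fzy, against 19.5% of coding genes.

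Of the 10 genes, 9 had a promoter summit in the relaxed pooled list, against 50.1% of coding genes, and 3 of them, CycB, Cdk2 and stg, had no IDR summit there (23.1% of coding genes). The same 9 had a relaxed pooled summit in their windows, against 63.0%. The same 9 genes had a promoter summit in the relaxed list of every replicate, against 38.8% of coding genes, though not always at the same place. For Cdk2 and stg the summit of replicate 2 was elsewhere in the promoter, and for CycE those of replicates 1 and 2 were at the third TSS. Ordered by the strongest pooled promoter summit, the genes ran from CycE (signal 1426) through Cdk1 (496), dap (273), fzy (257), CycB3 (198), CycA (165), stg (139) and CycB (138) to Cdk2 (111). The order by rank of dap and fzy, of CycB3 and CycA, and of CycA and stg changed between replicates, so these neighbours cannot be ordered. The signals of stg and CycB were too close to order. The share of coding genes with a lower promoter signal, or none, was 98.7% for CycE, 91.2% for Cdk1, 73.7% for CycA and 66.0% for Cdk2.

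**Figure D3:**
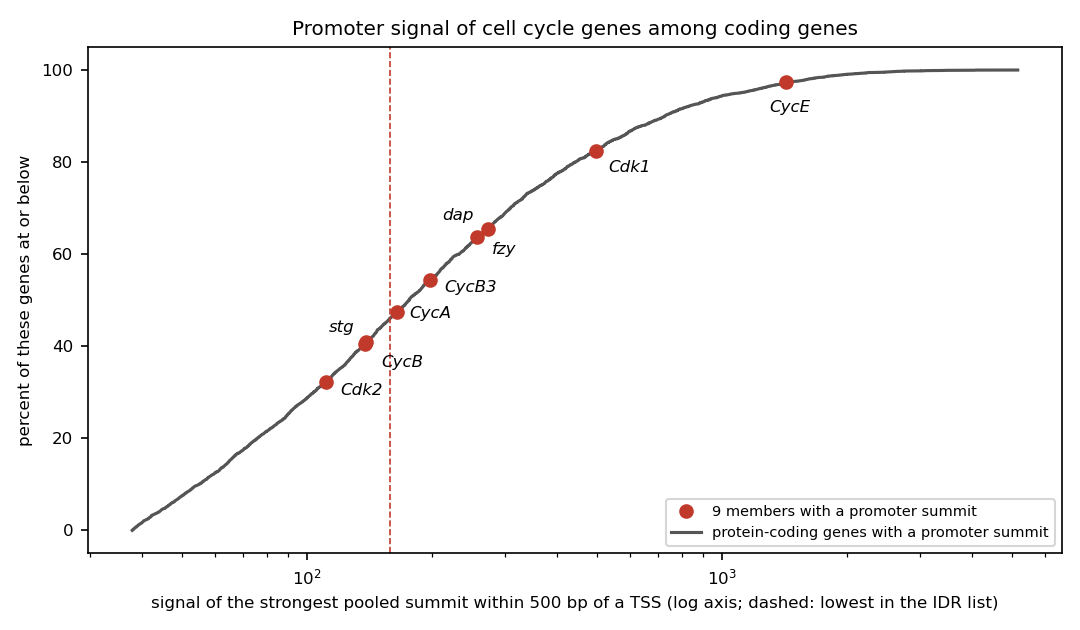
Signal of the strongest pooled summit within 500 bp of a TSS (log axis) for the 9 genes that have one (points) and for all coding genes that have one (line, cumulative percent). CycE and Cdk1 lie high on the curve at 1426 and 496, while stg, CycB and Cdk2 lie left of the dashed line at the lowest IDR signal of 158.

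A summit can count for more than 1 gene. When each summit was given only to its nearest TSS, 4 of the 10 genes had one, CycA, CycB3, CycE and dap, against 20.4% of coding genes. The genes lost were Cdk1 and fzy, whose summits were nearer to mRpS7 and cni. A divergent coding TSS within 1 kb was also found at CycB (stl, 912 bp away) and stg (CG45544, 685 bp away). For the 6 genes with an IDR promoter summit, the position relative to the TSS ran from 482 bp upstream to 74 bp downstream. In the pooled list CycE, Cdk1 and fzy were bound upstream, and CycA, CycB3 and dap downstream of the TSS within the first 74 bp. The side varied by replicate for CycA, 39 bp downstream in replicate 1 but 25 and 14 bp upstream in replicates 2 and 3. It also varied for CycB3, which was 57 bp upstream in replicate 2. Over all bound coding genes, 86.1% of the strongest promoter summits lay upstream.

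Of the printed sequences, those of CycE, Cdk1 and fzy had a low GC content, 20.9%, 26.4% and 30.8% of bases in that order. The CycB3 and CycA windows had 51.2% and 43.3%. Over all IDR summit windows of this width the median was 34.3%, with quartiles at 29.9% and 40.3%. The dap summits, whose sequences are not printed, had 46.3%, 38.3% and 40.3% at 813 bp upstream, 553 bp upstream and 74 bp downstream of the TSS.

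The CycA window held the DRE, TATCGATA, the element bound by the factor Dref, from 22 to 15 bp upstream of the summit. That is 11 to 4 bp upstream of the TSS. It was the single DRE among the 11 summits, and 3.46% of all IDR summit windows had one. The CycB3 window held GGTCACAC, the core of the promoter element Motif 1, from 80 to 73 bp upstream of the summit. This word was in 2.13% of IDR summit windows and at no other summit of these genes. The BEAF-32 site CGATA, which is part of the DRE, was in 4 of the 11 windows and in 27.4% of all. The core promoter word TATAAA was at 4 of 11, those of fzy, both Cdk1 summits and the CycE summit at rank 219, against 36.9% of all. In fzy it lay 10 to 5 bp upstream of the summit, which is 138 to 133 bp upstream of the fzy TSS. The cell cycle homology region word TTTGAA was in 5 of 11 windows and in 30.6% of all. The 5 were every CycE window, the Cdk1 window at rank 1808 and the dap window at rank 4947. GTTGCC, a half-site of the X box, was in 2 of 11 windows and in 9.70% of all. The word GAGAGAG, which the factor Trl binds, was at 2 dap summits, against 3.71% of all. The E2F words TTTGGCGC and TTTCGCGC and the Zelda word CAGGTAG were in none of the 11 windows, and in 0.861%, 0.671% and 0.950% of all IDR windows.

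In the promoters themselves, from 250 bp before to 50 bp after the first TSS, the DRE was present in CycA and Cdk2, against 9.37% of coding promoters. GGTCACAC was present in CycB, CycB3 and fzy, against 7.71%, and TTTGGCGC in stg alone, against 2.38%. The BEAF-32 site and the core promoter word were each in 5 of the 10 promoters, against 47.5% and 45.9%. The cell cycle homology region word was in 4, against 40.8%, and the X box half-site in 4, against 17.9%. The Trl word was in 2, against 5.87%. The Zelda word and the other E2F word were in none, against 1.64% and 1.15%. All these are matches of letters and not measured sites.

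A wider list of 69 other cell cycle genes was put together by function. Of these, 42 (60.9%) were bound, meaning that an IDR summit lay within 500 bp of a TSS, against the 27.0% of coding genes, and replicates 1, 2 and 3 gave 42, 40 and 36. In those replicates the shares of all coding genes were 27.8%, 26.4% and 27.0%. When each summit counted only for its nearest TSS the number was 29 of 69, against 20.4% of coding genes. Among the 3948 strongest IDR peaks it was 21 of 69, against 16.6%. The median rank of their promoter summits was 3890.5, and for the 6 bound members of the core set it was 4285. Over all bound coding genes it was 3101, so both sets were weaker at the median.

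The highest shares were those of DNA damage checkpoint genes and of mitotic kinases and phosphatases. Among mitotic kinases and phosphatases 10 of 11 genes had a promoter summit. The highest ranks were those of mts, the catalytic subunit of protein phosphatase 2A (rank 912), gwl, the Greatwall kinase (1365), and aurA, the Aurora A kinase (1887). The summits of mts and gwl were nearer to a TSS of another gene, and 6 of the 11 genes were left when only the nearest TSS counted. borr, which encodes Borealin, had none. All 5 DNA damage checkpoint genes were bound, led by mei-41, the fly ATR kinase (rank 700), p53 (1083) and tefu, the fly ATM kinase (2045). Of these, mei-41 and tefu had a summit nearer to another gene. The spindle checkpoint had 4 of 6 genes bound, with BubR1 (rank 1539), Bub3 (2476) and Bub1 (3977) at the top and none at Mad1 or mad2. The SCF ubiquitin ligase had 5 of 6, led by ago, which encodes the F-box protein that marks CycE for destruction (rank 3712), slmb (4013) and Roc1a (5384), with none at Skp2.

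The E2F, Rb and dREAM group, which controls transcription of cell cycle genes, had 7 of 10 genes bound. They were led by lin-52 (rank 260), Dp, the E2F partner (1108), and mip130 (3795), with none at Caf1-55 or mip120. The lin-52 summit lay 491 bp from its TSS, near the 500 bp limit, and only replicate 3 had a summit within that limit among its 7896 strongest peaks. The summits of lin-52 and mip130 were nearer to a TSS of another gene, and 4 of the 10 genes were left when only the nearest TSS counted. The APC/C and its regulators had 7 of 14, led by Cdc16 (rank 957), vih, its ubiquitin-conjugating enzyme (3522), and fzr, the activator related to fzy (3804), with none at APC10 or APC7.

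The remaining classes had lower shares. Other cyclins and CDKs had 3 of 9 genes bound, CycG (rank 1606), Cdk7 (5734) and CycY (5789), with that of Cdk7 nearer to another gene and none at Cdk4, the partner of CycD, or Cks30A. Of the genes that control CDK phosphorylation or inhibit CDKs, 1 of 5 was bound, rux, the gene of the CycA inhibitor Roughex (rank 4355), with none at Myt1 or trbl. Of the 3 genes of sister chromatid separation none was bound, pim and Sse among them. The classes hold 3 to 14 genes, so differences between them rest on few genes and were not tested.

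**Figure D4:**
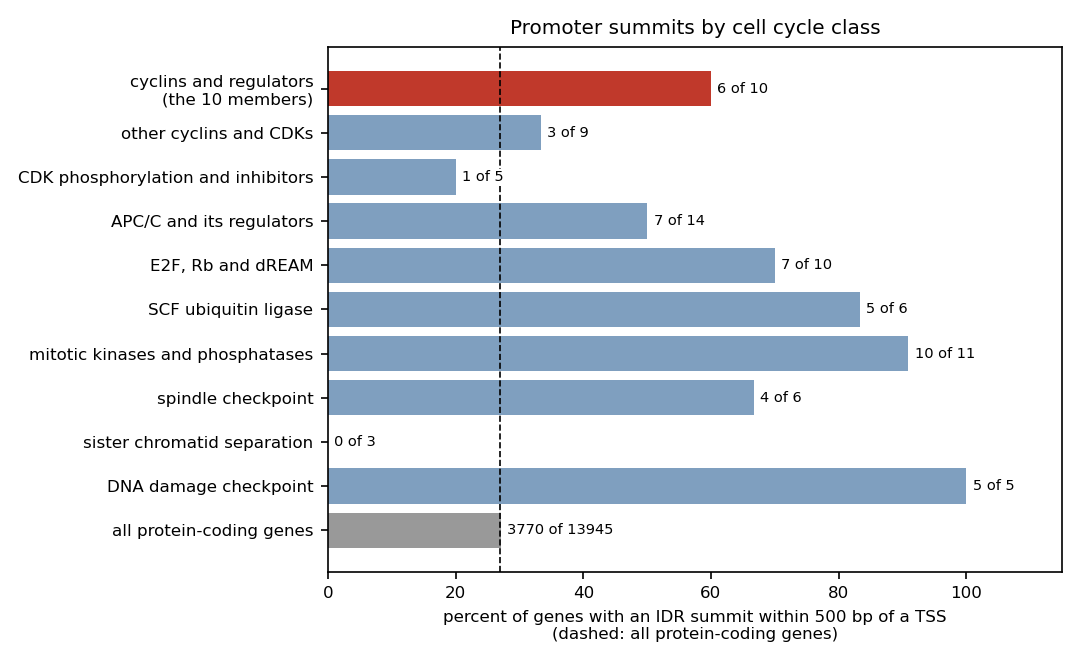
Percent of genes with an IDR summit within 500 bp of a TSS, for the 10 core genes, for 9 classes of other cell cycle genes and for all protein-coding genes (bottom bar and dashed line, 27.0%), with counts beside each bar. Mitotic kinases and phosphatases (10 of 11) and DNA damage checkpoint genes (5 of 5) reach the highest shares, and sister chromatid separation has 0 of 3.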

How the data were processed

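ChIP-seq peak lists of 3 replicates were used as deposited on the dm6 build. Per the file descriptions and the labels, the authors called a relaxed list for each replicate and for the pooled alignments against 1 control, and thresholded them by IDR. No aligner, peak caller or IDR threshold is stated in the labels or file descriptions. Each deposited peak has the authors' signal value and a q-value on the −log10 scale. Of the IDR peaks, 80.0% shared the highest −log10 q, so signal gave the ranks. The dm3 lists were not used, since coordinates were not converted.

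Ensembl release 115 supplied the gene models, and no peak ran past the end of its chromosome arm. Positions count from 1. A replicate supported a summit when a summit among its 7896 strongest peaks lay within 100 bp. Summits were assigned to genes by distance, and the 500 bp rule was checked on summits simulated near genes with a single TSS. Of the 10 motifs searched, both strands were read. Python 3.11.15, pandas 2.3.3, numpy 2.4.6 and matplotlib 3.10.9 were used.

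The 10 genes, the wider list and the motifs were chosen with earlier results of these data known, so shares are set beside those of all coding genes with no test. Current symbols replaced 2 older ones. The text names all 10 genes, the gene nearest to each of their IDR summits, and from each class up to 3 bound genes of highest signal and up to 2 unbound ones in alphabetical order. The genes nearest to IDR summits outside the windows were chosen after their values were seen. Nothing says whether the replicates came from separate embryo collections, so their spread may be partly technical. No sequence from arm 2R is shown.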

Additional observations from a re-analysis of the deposited data

How the results depend on the processing

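The number of the 10 genes with an IDR promoter summit was 6, and 4 to 6 with TSS windows of 200 and 1000 bp, the nearest TSS only, overlap of the peak interval, the 7896 strongest pooled peaks, or replicate 1 or 3 alone. It was 2 among the 3948 strongest IDR peaks, 3 in replicate 2 alone and 3 with the same summit demanded in every replicate, all by construction stricter or made from a single replicate. In replicates 1 and 2 the CycE summit fell outside 500 bp by 12 and 11 bp. The relaxed lists, tried after the data were seen, gave 9. The count of genes with an IDR summit in the whole window, 6, was 6 with 1 kb or 5 kb upstream, 7 by interval overlap (stg added) and 3 among the 3948 strongest. Extending the window to 1 kb past the gene end, also tried after the data were seen, gave 8 with CycB and stg added, against 40.6% of coding genes. Summits matched in every replicate numbered 7, with 8 without replicate 1, 2 or 3, 5 at 50 bp, and 11 in the whole relaxed lists. The median rank of the 11 summits, 4397, became 3160 by −log10 q, where most peaks are tied, and 4294 to 4693 within replicates, highest in replicate 3, and the cause was not tested. The mean of 4.67 genes per replicate was 4 to 5.5 without a replicate and 9 in the relaxed lists. Of the 69 other genes, 42 were bound, 28 to 44 with other TSS windows, the nearest TSS only or single replicates, and 21 among the 3948 strongest IDR peaks. Depth is unknown, so a gene outside the lists is not shown to be unbound. No paired analysis was possible because the samples form 1 group.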
